A study of Mus musculus with 12 samples.

Results

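Protocadherins are the largest group within the cadherin superfamily, adhesion proteins that span the cell membrane. They were taken here as every gene whose name begins with Pcdh in the deposited comparison of aged EE with aged SH mice, with the transcript row of the highest summed signal standing for each gene. This gave 71 gene names of 23361, spread over 90 transcript rows. Because the Pcdha genes and the Pcdhg genes were each counted from nearly the same reads, the 71 names were taken as 37 measurements. Of these, 30 passed a filter on low counts that 13138 genes passed in all.

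The series holds 12 SAGE-Seq libraries of the hippocampus of wild type mice of the C57/BL6 strain. The mice were male, each gave a single hippocampus, and all came from a cohort trained in the Morris water maze, so no group was untrained. Aged (14-17 months) and young (5-6 months) mice lived in environmental enrichment (EE), cages with wheels, tunnels and changing objects, or in standard housing (SH), with 3 libraries for each age and housing. These ages are those of the labels. The paper gives a slightly higher lower bound for the aged mice, and its ages are those at the start of its experiments. By its account the hippocampi were taken later, some weeks after a second water maze that followed the housing period. The comparisons ask what enrichment and age each went with in protocadherin expression, and whether the difference with enrichment depended on age.

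The clustered protocadherins lie in 3 arrays on chromosome 18. In the Pcdha and Pcdhg arrays, each gene contributes 1 variable first exon with its own promoter, which is spliced to constant exons at the 3′ end of the array, while each Pcdhb gene is a separate gene of 1 large exon. Neurons use different small sets of these genes, and the proteins bind like to like, which lets branches of the same neuron recognise and avoid each other. The non-clustered protocadherins are scattered over the genome. They are sorted into delta-1 genes (Pcdh1, Pcdh7, Pcdh9, Pcdh11x), whose cytoplasmic part binds protein phosphatase 1, delta-2 genes (Pcdh8, Pcdh10, Pcdh17, Pcdh18, Pcdh19), known for regulating the actin cytoskeleton through the WAVE complex, and others such as Pcdh15 and Pcdh20.

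SAGE-Seq reads a short tag that begins at the NlaIII site (CATG) nearest to the poly(A) end of a messenger RNA. In principle a count then does not grow with transcript length. Levels of different genes are set side by side below on this basis, which was not checked. The position of that site decides which protocadherins the assay can tell apart. In the mouse genome of the files (NCBI37/mm9), all 14 Pcdha transcripts had the same last site at chr18:37347240-37347243, 72 to 75 bases before their ends, and all 22 Pcdhg transcripts had the same last site at chr18:38000557-38000560, 961 to 970 bases before their ends. Both sites lie in the 3′ untranslated part of the constant exon in the GENCODE vM1 annotation. The 22 Pcdhb genes had 22 different last sites, 25 to 1575 bases before the transcript end, and none of their tags occurred in a protein-coding transcript of another gene in GENCODE vM1. By their last tags the Pcdhb genes were thus separable, and the genes within the Pcdha and within the Pcdhg array were not. For Pcdhb9 and Pcdhb20 the tag occurred in no protein-coding transcript of that annotation at all. The last site of Pcdhb9, 25 bases before its end, left less than the 27 bases that the tagging enzyme releases. Sites further from the transcript ends were not compared.

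The deposited values bore out this sharing. In each library the lowest row of the 14 Pcdha genes held 97.8% to 99.7% of the reads of the highest, and the lowest row of the 22 Pcdhg genes held 96.5% to 99.4%. No pair of genes had identical values in all 12 libraries, and each row held a few reads beyond the lowest row of its array. These summed over the 12 libraries to 2 to 12 reads for 13 Pcdha genes and to 146 for Pcdhac2, beside 15869 shared reads. In the Pcdhg array they summed to 5 to 185 reads for 21 genes and to 617 for Pcdhgc5, beside 32869 shared reads. Pcdhac2 and Pcdhgc5, C-type genes at the 3′ end of their arrays, had the highest summed signal and are used below as the Pcdha shared and the Pcdhg shared measurement. Their values are totals over an array and give no level of Pcdhac2 or Pcdhgc5 alone.

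Outside the arrays, transcripts of the same gene could differ in their last site. The predicted tags of some of these transcripts are given here with the NlaIII site in capitals and the following bases in lower case, read from NCBI37/mm9, to show that rows of a gene rest on different tags.
Pcdh10 NM_001098171, chr3:45227495-45227521, plus strand: CATGagtttcagtcttaattgcagtgt
Pcdh10 NM_001098170, chr3:45238223-45238249, plus strand: CATGtttgcaatccagactagggagct
Pcdh10 NM_011043, chr3:45186334-45186360, plus strand: CATGtttagtgatcagttccttctctg
Pcdh7 NM_018764, chr5:58120554-58120580, plus strand: CATGggaactgctgtagcccatacaag
Pcdh15 NM_001142746, chr10:74112180-74112206, plus strand: CATGaatttcttgttgtatttctctct
Pcdh15 NM_001142735, chr10:74097429-74097455, plus strand: CATGcctttaactcggtgacattatct
NM_011043 is a transcript of 1 unspliced exon, and its site lies outside the exons of GENCODE vM1. The other 5 sites lie in annotated 3′ untranslated sequence. The last sites of Pcdh10 NM_001098172, of Pcdh9 and of Pcdh7 NM_001122758, the row behind the Pcdh7 levels and comparisons, also lie outside those exons, and their tags are not given. In Pcdh8 the last site, at chr14:80166593-80166596, was only 18 bases from the transcript end, shorter than the 27 bases that the tagging enzyme releases.

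Total reads per library ranged from 6928733 to 16035101. Some libraries stood apart. Aged SH library 2 had 81 of the 13138 genes (0.617%) at 2 or more times the highest of the other 11 libraries, and all 22 Pcdhg genes were among these 81. Young SH library 3 had 75 such genes, aged EE library 3 had 38, young EE library 1 had 12 and the other libraries 0 to 5, with no protocadherin among them. Choroid plexus markers (9 genes, 6 of them with reads in every library) summed to 1283 reads per 1000000 (RPM) in aged EE library 3 and to 77.8 to 185 RPM in the others. Markers of the hippocampal neurons (12 of 12) and of astrocytes (6 of 6) had reads in every library, whereas the interneuron genes Sst and Pvalb were listed at 0 in all. The mean log2 value of 4 dorsal less that of 8 ventral hippocampal markers ranged from 0.18 to 2.94 in aged EE, from -0.55 to 0.25 in aged SH, from -0.73 to -0.11 in young EE and from -0.86 to 2.88 in young SH, so the libraries differed in this position score. In bulk tissue, fewer cells of a type and less RNA per cell cannot be told apart.

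The Pcdhg shared measurement was the most abundant protocadherin signal, at a mean of 340 RPM over the 12 libraries, the 96.0th percentile of all genes tested. Its values were 256, 183 and 256 RPM in aged EE libraries 1 to 3, 386, 1181 and 295 in aged SH, 226, 337 and 355 in young EE, and 226, 213 and 163 in young SH. Aged SH library 2 was over 3 times as high as any other library, and the other 11 libraries lay between 163 and 386 RPM. The 3 aged SH libraries were all above the 3 aged EE libraries and above the 3 young SH libraries.

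The Pcdha shared measurement was less than the Pcdhg one in every library, at a mean of 151 RPM. It was at 130, 144 and 128 RPM in aged EE, 155, 140 and 152 in aged SH, 197, 142 and 142 in young EE, and 135, 190 and 159 in young SH. The groups overlapped in every comparison. The row of Pcdha4-g was low, at 0.243 to 3.89 RPM. Its last site, at chr18:37999600-37999603, differed from that of either array. The tag at this site also occurs in GENCODE vM1 transcripts named Pcdhgc5, so its reads cannot be assigned to Pcdha4-g alone.

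Among the non-clustered genes, Pcdh20 had the highest mean, 194 RPM. Its libraries were at 199, 174 and 334 RPM in aged EE, 204, 175 and 192 in aged SH, 200, 206 and 116 in young EE, and 210, 145 and 171 in young SH. Aged EE library 3, the library with the high choroid plexus markers, was the highest and stood apart from the rest; whether these markers had a part in it was not tested.

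Pcdh10, a delta-2 gene that takes part in the removal of synapses downstream of Mef2, had a mean of 147 RPM. It was at 137, 157 and 115 RPM in aged EE, 165, 163 and 145 in aged SH, 175, 159 and 176 in young EE, and 107, 140 and 130 in young SH. All 3 young EE libraries were above all 3 young SH libraries, as were all 3 aged SH libraries. Pcdh9, of the delta-1 group, followed with a mean of 108 RPM. Its values were 89.2, 108 and 80.9 RPM in aged EE, 109, 93.1 and 100.5 in aged SH, 140, 98.4 and 103 in young EE, and 120, 130 and 124 in young SH. The young SH libraries were above all aged libraries. Pcdh17, a delta-2 gene known for its place at synapses of the basal ganglia, had a mean of 71.9 RPM and group means from 69.2 to 73.7 RPM. It was at 60.6, 79.4 and 76.8 RPM in aged EE, 71.5, 92.6 and 53.5 in aged SH, 76.6, 71.8 and 72.6 in young EE, and 56.1, 90.8 and 60.7 in young SH, with every pair of groups overlapping.

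Pcdh7, a delta-1 gene, had a mean of 32.0 RPM and varied widely from mouse to mouse. Its values were 15.9, 54.6 and 27.1 RPM in aged EE, 44.0, 23.4 and 56.0 in aged SH, 28.4, 54.6 and 23.9 in young EE, and 24.2, 13.2 and 18.1 in young SH. The spread within a group reached a SD of 19.9 RPM (aged EE, n = 3). Pcdh19, the X-linked delta-2 gene mutated in an epilepsy of human females, had a mean of 29.0 RPM and was at 23.2, 31.4 and 20.6 RPM in aged EE, 24.8, 26 and 21.0 in aged SH, 55.6, 23.1 and 27.9 in young EE, and 26.4, 34.8 and 33.3 in young SH. Young EE library 1 was above all others. It was also the highest library for Pcdh9, the Pcdha shared measurement, Pcdhb8, Pcdhb9, Pcdhb12, Pcdhb14, Pcdhb18 and Pcdhb20, though for Pcdhb12 only just.

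The Pcdhb genes were each far lower than the shared measurements. Pcdhb7 was the highest at a mean of 22.2 RPM, with 30.5, 18.1 and 24.1 RPM in aged EE, 25.1, 20.6 and 24.8 in aged SH, 25.1, 20 and 21.0 in young EE, and 19.4, 16.3 and 21.8 in young SH. Pcdhb3 was at 31.3, 26.5 and 31.8 RPM in aged EE, 12.4, 29.0 and 17.5 in aged SH, 8.36, 17.5 and 14.7 in young EE, and 17.8, 16.9 and 12.2 in young SH. Its aged EE libraries were above all libraries of both young groups. Pcdhb20 was at 11.6, 10.4 and 10 RPM in aged EE, 15.9, 14.5 and 16.2 in aged SH, 20.6, 15 and 13.3 in young EE, and 13.2, 15.5 and 9.09 in young SH, with the aged EE libraries below all aged SH and all young EE libraries. The other 14 Pcdhb genes that passed the filter had means from 0.845 RPM (Pcdhb8) to 13.2 RPM (Pcdhb5).

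The order of levels ran from the Pcdhg shared measurement through Pcdh20, the Pcdha shared measurement, Pcdh10, Pcdh9 and Pcdh17 to Pcdh7 and Pcdh19, and the ranges of Pcdh20, Pcdha and Pcdh10 overlapped. The remaining non-clustered genes were Pcdh8 (17.6 RPM), Pcdh15 (7.98 RPM), Pcdh1 (7.80 RPM) and Pcdh18 (5.31 RPM). The 7 members that did not pass the filter were Pcdhb11 with 62 reads in all 12 libraries, Pcdh11x with 30, Pcdhb22 with 29, Pcdhb6 with 23, Pcdhb2 with 13, the endothelial protocadherin gene Pcdh12 with 6 and Pcdhb1 with 1. They were not tested.

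**Figure D1:**
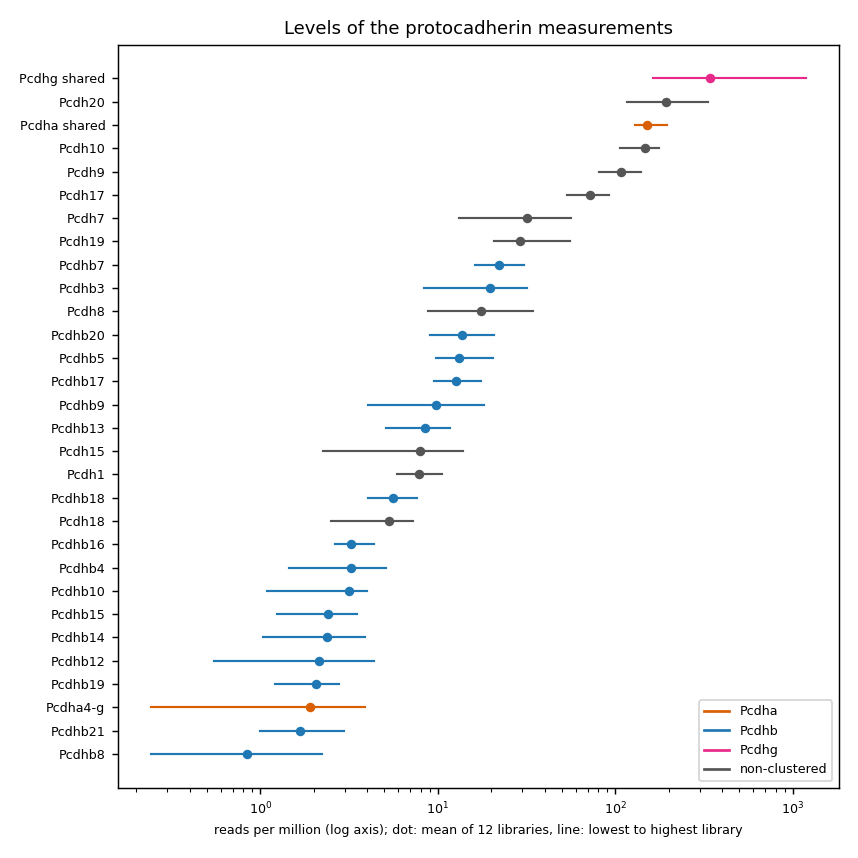
Mean level of the 30 protocadherin measurements that passed the filter, in RPM on a log axis (dot, mean of 12 libraries; line, lowest to highest library; colour, array or non-clustered). The Pcdhg shared measurement had the highest mean (340 RPM) and reached 1181 RPM in 1 library, and the means of the Pcdhb genes lay between 0.845 and 22.2 RPM.

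**Figure D2:**
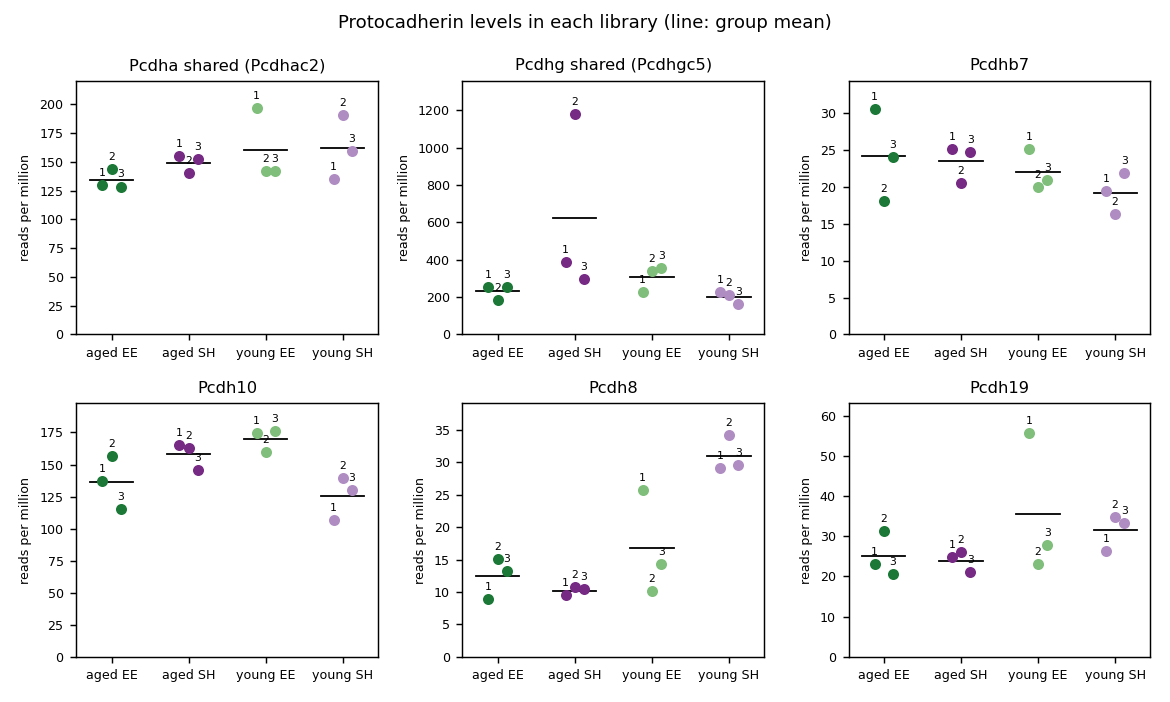
Levels of 6 protocadherin measurements in every library, in RPM, by group (points, libraries 1 to 3; line, group mean). Aged SH library 2 stood out for Pcdhg (1181 RPM), young EE library 1 for Pcdh19 (55.6 RPM), and the 3 young SH libraries of Pcdh8 (29.2 to 34.3 RPM) lay above all other libraries.

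Log2 values (reads scaled to a common depth, plus 2) were compared by limma over all 13138 genes, with the 4 groups in the same fit. A call is a Benjamini-Hochberg adjusted p under 0.1, the threshold of the study. Fold changes below are log2 of the first group over the second with the standard error (SE) of the fit, and the constant of 2 makes them smaller for rare genes. Comparisons that use the same group share its 3 libraries, so their values for a gene are not independent of each other.

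With age in standard housing, Pcdh8 fell and was the only protocadherin called. Pcdh8, also known as arcadlin, is a delta-2 gene induced by neuronal activity, whose protein takes part in pulling N-cadherin in from the synapse. The young SH libraries held 29.2, 34.3 and 29.6 RPM of it and the aged SH libraries 9.51, 10.7 and 10.4, against 8.86, 15.1 and 13.2 in aged EE and 25.7, 10.1 and 14.3 in young EE. Every aged SH library was below every young SH library, and the young SH group was above all other 9 libraries. The log2 fold change of aged SH over young SH was -1.58 (SE 0.30, adjusted p = 0.0657 by limma), a mean of 10.2 ± 0.638 RPM against 31.0 ± 2.82 RPM (SD, n = 3 each). Markers of interneurons and of blood were also lower in aged SH without overlap. Interneuron markers (5 of 7 with reads in every library, Sst and Pvalb at 0) summed to 675 to 775 RPM in aged SH and 863 to 1133 in young SH. Blood markers (3 of 3) summed to 1022 to 1437 RPM in aged SH and 1635 to 3847 in young SH, and to 614 to 1510 RPM in young EE. Their part in the result was not tested.

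The call on Pcdh8 was made in 1 of the 30 measurements tested, beside a background of 2.91% of all genes tested (382 called), 1.18% higher and 1.73% lower in aged SH. Scaled by total reads alone, 92 of 417 genes called were higher, the median of all genes lay at -0.11, and Pcdh8 was called as well. Pcdh8 kept its direction in every alternative run but not its call in all: the adjusted p by limma ranged from 0.00781 to 0.209 when 1 library was left out, and the call was lost without aged EE library 3, young EE library 3, any aged SH library, young SH library 1 or young SH library 3. With the position score in the model it was 0.123 (log2 fold change -1.81), and with the 8 libraries the study compared 0.641 (log2 fold change -1.58). In edgeR, by quasi-likelihood or likelihood ratio, and in DESeq2, the protocadherins called were Pcdh8 and Pcdhg rows, all 22 of these except with quasi-likelihood, where Pcdhgc5 itself just missed (adjusted p = 0.100294) and the other 21 were called. Over all 13138 genes these 3 tests called 339, 985 and 1145.

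The Pcdhg shared measurement came next in that comparison, with a log2 difference of 1.37 between aged SH and young SH (SE 0.41). Its adjusted p by limma, 0.123, missed the threshold. The 22 Pcdhg rows ranged in log2 fold change from 1.37 to 1.39, as rows of the same reads must. Without aged SH library 2 the log2 fold change was 0.77 (adjusted p = 0.166), and the other 2 aged SH libraries still lay above the 3 young SH ones. The part of that library's 81 high genes in the result was not tested.

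Counting Pcdh8 and Pcdhg, 5 of 30 measurements had an unadjusted p under 0.05, against 19.4% of all genes, 3 of them higher (9.32% of all genes) and 2 lower (10.1%). The aged SH mice had more Pcdhb5, at 14.0, 13.5 and 20.4 RPM against 10.2, 10.8 and 9.82 in young SH (log2 fold change 0.60, SE 0.22, adjusted p = 0.185). They had less Pcdhb12, at 1.3, 1.87 and 0.832 RPM against 3.16, 3.26 and 4.37 (log2 fold change -1.33, SE 0.53, adjusted p = 0.211). Neither pair of groups overlapped. Pcdh7 overlapped, at 1.09 (SE 0.47, adjusted p = 0.232), and Pcdha shared did too, at -0.11 (SE 0.17, adjusted p = 0.779). The libraries of the 2 groups did not overlap for 9 of 30 measurements and for 25% of all genes. The 17 Pcdhb genes tested were split, 8 higher and 9 lower (median log2 fold change -0.09), as were the 10 non-clustered genes, 7 higher and 3 lower (median 0.11), beside a median of 0.00 over all genes.

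Aged EE against aged SH mice gave no call among the protocadherins by limma, where 0.00761% of all genes (1 of 13138) were called. At an unadjusted p under 0.05 there were 4 of 30, against 8.9% of all genes, 1 higher (4.5% of all genes) and 3 lower (4.4%) in aged EE. Both edgeR tests called 0 of the measurements. DESeq2 called 21 of the 22 Pcdhg rows, all but Pcdhgc5 itself (adjusted p = 0.108), which count as 1 measurement. Over all 13138 genes DESeq2 called 101. The Pcdhg shared measurement had a log2 difference of -1.16 (SE 0.41, adjusted p = 0.516), a mean of 232 ± 42.2 RPM against 621 ± 488 RPM (SD, n = 3 each). Without aged SH library 2 it was -0.56 (adjusted p = 0.427).

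Pcdh15, known for the tip links of hair cells in the inner ear, was lower in the aged EE libraries. It was at 4.70, 6.30 and 2.27 RPM in aged EE and 10.2, 10.9 and 7.91 in aged SH, without overlap (log2 fold change -1.19, SE 0.38, adjusted p = 0.516), and the difference was -0.79 without aged EE library 3, the library with the high choroid plexus markers. These markers summed to 138 to 1283 RPM in aged EE and to 111 to 135 RPM in aged SH, and their part was not tested. Pcdhb21 was at 2.95, 2.06 and 2.27 RPM in aged EE and 1, 1.09 and 1.25 in aged SH (0.98, SE 0.29, adjusted p = 0.516). Pcdhb20 was lower in all 3 aged EE libraries (-0.53, SE 0.23, adjusted p = 0.540), and Pcdhb3 was at 0.68 (SE 0.33, adjusted p = 0.568) with groups that overlapped. Pcdhb3 was at 0.40 without aged SH library 1 and at 1.003 without aged SH library 2. The Pcdha shared measurement was at -0.15 (SE 0.17, adjusted p = 0.815), and at 0.040 with the position score in the model. In that fit Pcdhb20 was at -0.33, Pcdhb3 at 0.61, Pcdh15 at -1.01, Pcdhb21 at 0.92 and Pcdhg shared at -1.37.

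Over the arrays, 12 of 17 Pcdhb genes were higher and 5 lower in aged EE (median log2 fold change 0.14), while 4 of 10 non-clustered genes were higher and 6 lower (median -0.10), beside a median of 0.02 over all genes. The libraries of the groups did not overlap for 6 of 30 measurements, 4 of these Pcdhb genes, against 17.1% of all genes.

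In young mice, EE and SH gave no protocadherin call by limma, either edgeR test or DESeq2, and limma called 0% of all genes. There were 3 of 30 at an unadjusted p under 0.05, against 9.64% of all genes, 1 higher (5.07%) and 2 lower (4.57%). Pcdh8 was lower in young EE at -0.98 (SE 0.30, adjusted p = 0.402), with libraries that did not overlap. Without young EE library 1, the highest of its group, it was -1.34 and called (adjusted p = 0.0433), as was Pcdhb9 (-1.49, adjusted p = 0.0486, against -0.84 and an adjusted p = 0.576 with that library in). Pcdhb9 was at 18.2, 4.07 and 5.10 RPM in young EE and 12.9, 11.5 and 15.6 in young SH, so library 1 lay above and the other 2 below the whole SH group. Without young EE library 2 its log2 fold change was -0.44. Without young EE library 1 limma called 298 genes in place of 0. Blood markers did not overlap between the young groups either, at 614 to 1510 RPM in young EE and 1635 to 3847 in young SH. Their part in the Pcdh8 difference was not tested.

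Pcdh10 was higher in all 3 young EE libraries, by 0.44 (SE 0.15, adjusted p = 0.427), and Pcdhb13 lower in all 3, at 5.11, 6.93 and 5.34 RPM against 7.69, 8.88 and 8.37 (-0.51, SE 0.22, adjusted p = 0.486). Pcdh7 was at 0.88 (SE 0.47, adjusted p = 0.570), and at 0.53 without young EE library 2. The Pcdhg shared measurement was at 0.59 (SE 0.41, adjusted p = 0.651) and the Pcdha one at -0.01 (SE 0.17, adjusted p = 0.986). With the position score in the model Pcdh10 was at 0.30, Pcdhb13 at -0.47, Pcdh7 at 0.69 and Pcdh8 at -1.25. In the same fit Pcdhg shared was at 0.79, Pcdha shared at -0.20 and Pcdhb9 at -0.94. Of the Pcdhb genes 6 were higher and 11 lower in young EE (median -0.15), and of the non-clustered genes 7 higher and 3 lower (median 0.10). Groups did not overlap for 4 of 30 measurements and for 12.9% of all genes.

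In enriched mice, age also gave no call by limma, by either test of edgeR or by DESeq2 among the protocadherins, where limma called 0% of all genes. At an unadjusted p under 0.05 there were 6 of 30, against 7.93% of all genes, 4 higher (4.39%) and 2 lower (3.54%) in aged EE. The 4 higher ones were Pcdhb3, Pcdhb4, Pcdhb13 and Pcdhb21. Pcdhb3 was at 1.19 (SE 0.33), Pcdhb13 at 0.68 (SE 0.22) and Pcdhb4 at 0.98 (SE 0.35), with adjusted p = 0.608, 0.608 and 0.624. Pcdhb13 was at 10.3, 7.75 and 10.2 RPM in aged EE, and Pcdhb4 was at 4.16, 4.36 and 5.10 RPM against 1.77, 3.19 and 1.82 in young EE. Neither overlapped between the groups, nor did Pcdhb3. The position score did not overlap between these groups either, at 0.18 to 2.94 in aged EE and -0.73 to -0.11 in young EE. Age and this score thus went together here. With the score in the model, Pcdhb3, Pcdhb13 and Pcdhb4 stayed higher in aged EE, at no less than 1.104, 0.605 and 0.807. Beyond that fit, the part of the score in these differences was not tested.

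Pcdh15 stood at 9.20, 9.13 and 13.8 RPM in young EE, above all aged EE libraries (log2 fold change -1.32, SE 0.38, limma's adjusted p = 0.608). Also lower in aged EE was Pcdhb20, at -0.58 (SE 0.23, adjusted p = 0.624). Some cell type markers did not overlap between these groups either. Those of oligodendrocyte precursors summed to 52.7 to 56.4 RPM in aged EE and 62.1 to 63.8 in young EE. Endothelial markers summed to 56.2 to 68.0 and 70.1 to 85.5 RPM, and choroid plexus markers to 138 to 1283 and 77.8 to 109 RPM. The part of these markers was not tested. The Pcdhg shared measurement was at -0.39 (SE 0.41, adjusted p = 0.809) and the Pcdha one at -0.24 (SE 0.17, adjusted p = 0.705). Of the Pcdhb genes, 13 of 17 were higher in aged EE (median 0.26) and of the non-clustered genes 2 of 10 (median -0.31), beside a median of 0.00 over all genes. Libraries did not overlap for 8 of 30 measurements, 6 of these Pcdhb genes, against 16.6% of all genes. The same aged EE libraries stood in the comparison with aged SH, so the count of Pcdhb genes higher there is not a separate observation.

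**Figure D3:**
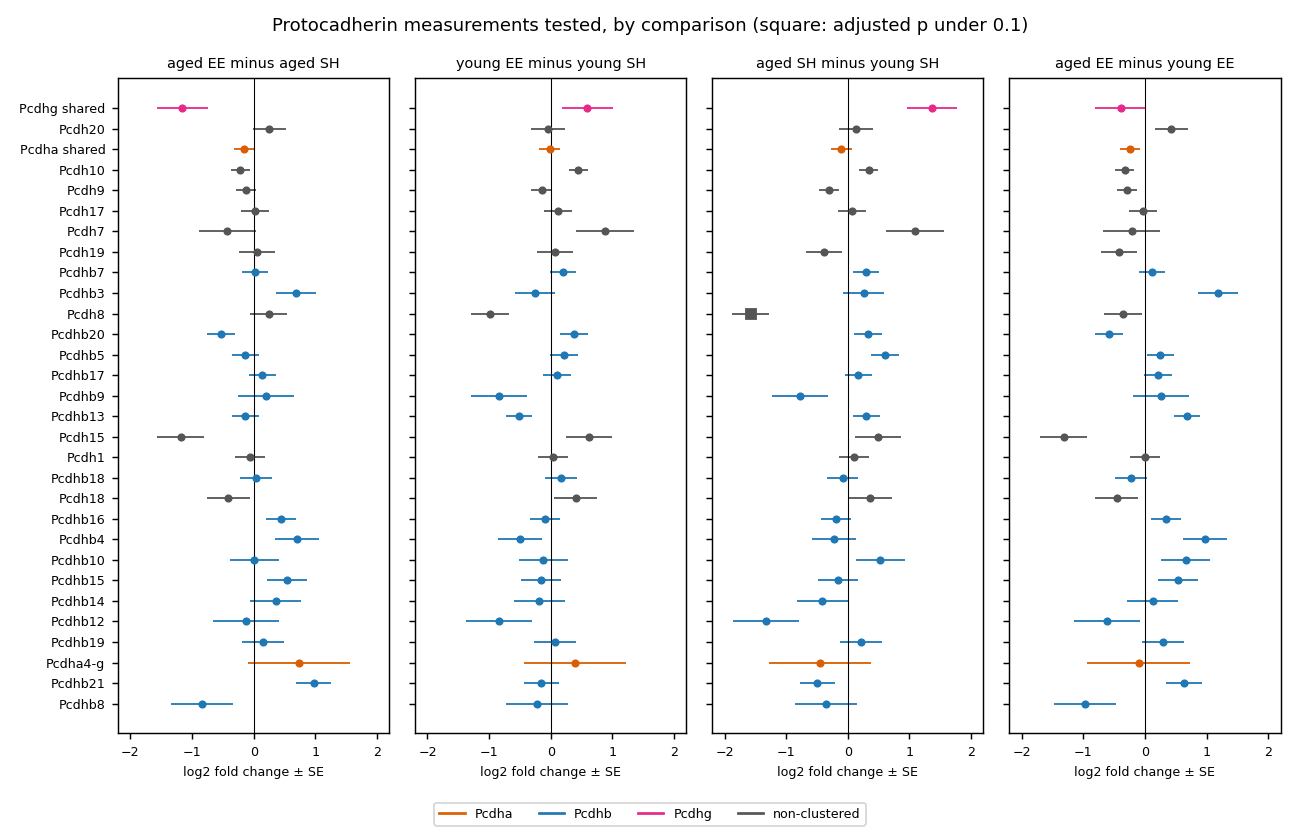
Log2 fold change ± SE of the 30 protocadherin measurements tested, in 4 comparisons, ordered by mean level (square, adjusted p under 0.1; colour, array or non-clustered). The square is Pcdh8 in aged SH minus young SH, at -1.58, and the Pcdhg shared measurement lay at -1.16 between aged groups and at 1.37 between SH groups.

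Whether the difference with enrichment depended on age was tested directly, as the difference in aged mice less that in young mice. No protocadherin passed by limma or by edgeR's quasi-likelihood, and limma called 0% of all genes. The likelihood ratio test called 1 measurement, Pcdhg, and DESeq2 called 2, Pcdhg and Pcdh15. Over all 13138 genes these tests called 180 and 301. At an unadjusted p under 0.05 there were 7 of 30, against 12.1% of all genes, 3 higher (5.52%) and 4 lower (6.62%). Pcdh15 was at -1.81 (SE 0.53, adjusted p = 0.285), Pcdhg shared at -1.76 (SE 0.58, adjusted p = 0.293), Pcdhb20 at -0.91 (SE 0.32, adjusted p = 0.307) and Pcdh10 at -0.67 (SE 0.22, adjusted p = 0.287). Pcdh8 went the other way, at 1.23 (SE 0.43, adjusted p = 0.301), and Pcdha shared was at -0.14 (SE 0.24, adjusted p = 0.848). Without aged SH library 2, Pcdhg shared was at -1.15 (adjusted p = 0.249).

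The reads that set Pcdhgc5 apart from the other Pcdhg genes were looked at separately, after their values had been seen. Pcdhgc5, a C-type gene whose protein is found at a part of the GABAergic synapses, had 64, 53 and 86 reads beyond the lowest Pcdhg row in aged EE, 35, 63 and 8 in aged SH, 57, 67 and 55 in young EE, and 58, 45 and 26 in young SH. As a share of its row this was 2.73%, 3.51% and 3.18% in aged EE, 0.907%, 0.830% and 0.565% in aged SH, 2.35%, 2.19% and 1.88% in young EE, and 2.71%, 2.08% and 1.93% in young SH. The aged SH libraries were the lowest 3 and the aged EE libraries the highest 3 of the 12. The 95% Wilson interval of the highest aged SH library was 0.653% to 1.26% and that of the lowest aged EE library 2.14% to 3.47%, for counting error only.

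In level, these reads were at 7, 6.42 and 8.13 RPM in aged EE and 3.5, 9.81 and 1.66 in aged SH, so the groups overlapped in level and not in share. Most of the row was the shared reads, at 177 to 249 RPM in aged EE and 293 to 1172 in aged SH. The share is thus no separate observation from the Pcdhg shared difference. The share was 2.37 percentage points higher in aged EE than in aged SH (means 3.14 ± 0.391% and 0.767 ± 0.180%, SD, n = 3 each). A two-sided exact permutation test gave p = 0.1, the smallest that 3 against 3 libraries allow, and 0.2 after adjustment over the 8 comparisons of Pcdhgc5 and Pcdhac2. Rounding of the deposited values to 4 digits can move a count of this kind by about 1 read. Pcdhac2 had 3 to 34 reads of its own per library, with shares of 0.662% to 1.18% in aged EE and 0.389% to 0.556% in aged SH, also without overlap (exact permutation p = 0.1, the smallest possible).

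**Figure D4:**
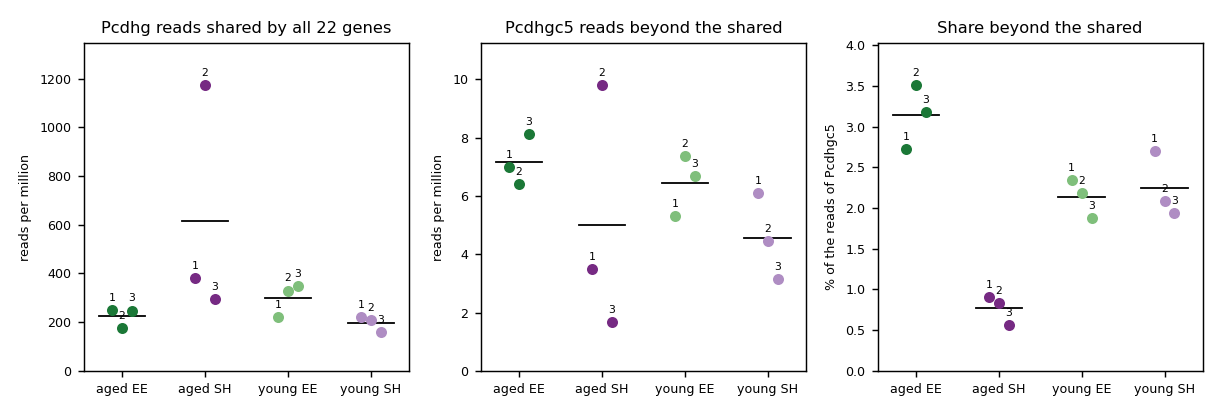
Reads shared by all 22 Pcdhg genes (left, RPM), reads of Pcdhgc5 beyond those (middle, RPM) and the latter as a percentage of the Pcdhgc5 row (right), by library (points, libraries 1 to 3; line, group mean). The aged SH libraries lay at 0.565% to 0.907% in the right panel and at 1.66 to 9.81 RPM in the middle one, while the other 9 libraries lay at 1.88% to 3.51%.

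Genes with more than 1 transcript row were also compared row by row. Pcdh10 had 4 rows with unlike values. The dominant row, NM_001098171, held 15446 reads, against 2038 for NM_001098170, 1142 for NM_001098172 and 889 for NM_011043. The unspliced NM_011043 was at 12.2, 7.75 and 7.37 RPM in aged EE, 10.8, 16.3 and 9.57 in aged SH, 6.04, 11.2 and 9.34 in young EE, and 5.16, 4.15 and 4.97 in young SH. All young SH libraries were below all other 9. When every transcript row was tested (17725 rows), it was called as higher in aged SH than in young SH, at 1.29 on the log2 scale (SE 0.30, adjusted p = 0.0848). Limma called 537 of the 17725 rows there. In the same fit NM_001098171 was at 0.34 (SE 0.15, adjusted p = 0.252), NM_001098172 at 0.04 (SE 0.25, adjusted p = 0.955) and NM_001098170 at -0.08 (SE 0.21, adjusted p = 0.869). The difference between rows was itself not tested. NM_011043 was also not tested with a library left out, with the position score in the model, or by edgeR or DESeq2.

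**Figure D5:**
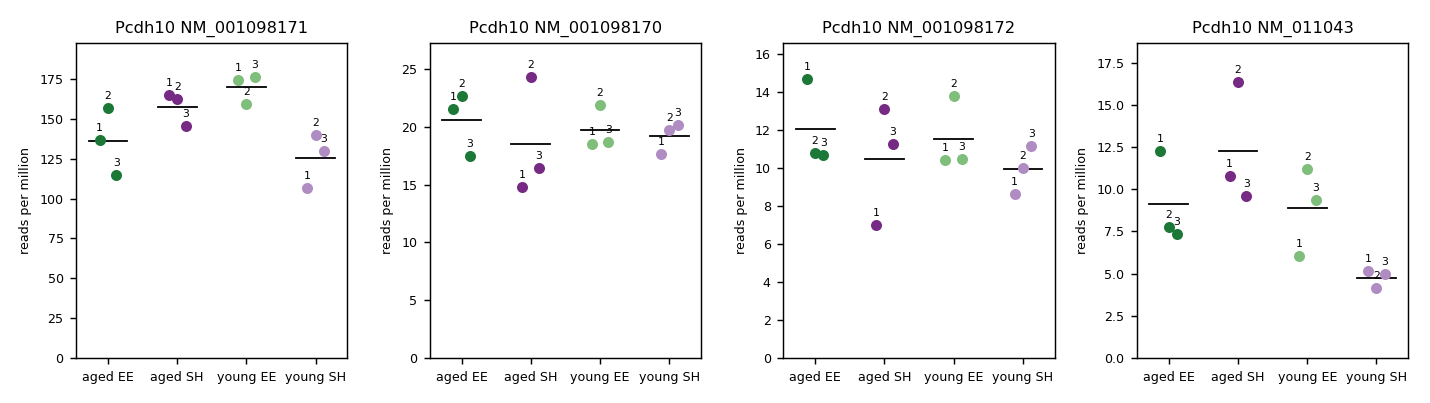
RPM of the 4 transcript rows of Pcdh10 in every library, by group (points, libraries 1 to 3; line, group mean; each panel has its own axis from 0). In NM_011043 the young SH libraries, at 4.15 to 5.16 RPM, lay below all others.

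Pcdh7 had a long row, NM_001122758 (3254 reads), and a short row, NM_018764 (214 reads). The short row was at 7.81 RPM in young EE library 1 and at 0.790 to 2.30 RPM in the other 11 libraries, and was not called in any comparison. Of the 14 rows of Pcdh15, NM_001142746 and NM_001142760 had the same 820 reads, and the other 12 had 23 to 60 reads each, so the Pcdh15 values above come from the most distal of the 3′ ends. The 2 rows of Pcdh8 differed by 7 reads in total (1915 and 1908), and those of Pcdh19 were identical.

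The genes most like the shared measurements over the 12 libraries were named by Pearson's r of log2 values, as a description over libraries that also share depth and composition. For Pcdhg these were Edf1 (r = 0.97), Fpgs (0.96) and D14Abb1e (0.95). In aged SH library 2 they stood at 1629, 32.7 and 228 RPM, against at most 671, 10.9 and 69.4 RPM in the other 11. For Pcdha they were Dcaf12l1 (0.92), Slc4a10 (0.90) and Etl4 (0.89), all 3 highest in young EE library 1, as was Pcdha.

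Genes that work with protocadherins were described from lists, and no member of any list was called in any comparison by limma with all 12 libraries. Of genes for promoter choice and chromatin at the arrays, such as the insulator protein gene Ctcf and cohesin genes, 13 of 14 were tested. Between aged EE and aged SH 10 were higher and 3 lower (median log2 fold change 0.10), and the smallest p was that of the cohesin gene Stag1 (0.46, SE 0.20, adjusted p = 0.540). Between aged SH and young SH 4 were higher and 9 lower (median -0.19), with Stag1 at -0.41 (SE 0.20, adjusted p = 0.274). Without aged SH library 3 Stag1 was at 0.24 and -0.20 in these comparisons.

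Of partners and effectors, 28 of 29 were tested. Between aged EE and aged SH 17 were higher and 11 lower (median 0.15), with the phosphatase gene Ppp1cc, whose product delta-1 protocadherins bind, at 0.48 (SE 0.18, adjusted p = 0.516). Its relative Ppp1ca was at 152, 224 and 177 RPM in aged EE and 162, 37.4 and 110 in aged SH. These groups overlapped, and the log2 fold change of 1.05 (SE 0.42, adjusted p = 0.528) was 0.44 without aged SH library 2. Between aged SH and young SH 11 were higher and 17 lower (median -0.10), with the kinase gene Fyn at -0.98 (SE 0.34, adjusted p = 0.160). Without young EE library 1, Fyn (adjusted p = 0.0594) and Axin1 (adjusted p = 0.0859) were called there by limma. That fit called 1140 of 13305 genes. In young mice, EE over SH had Set, also a partner of Pcdh7, at 0.75 (SE 0.22, adjusted p = 0.395). Of the genes of ADAM10 and gamma-secretase, which cut protocadherins, 5 of 6 were tested, with Aph1a at 0.71 (SE 0.26, adjusted p = 0.516) between aged EE and aged SH and Psen2 at 0.59 (SE 0.24, adjusted p = 0.219) between aged SH and young SH. Aph1a was at 0.40 without aged SH library 1, and Psen2 at 0.32 without young SH library 3.

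Among relatives, 8 of 10 atypical cadherins were tested, with Celsr3, a seven-pass cadherin for axon guidance, at -0.54 (SE 0.16, adjusted p = 0.516) between aged EE and aged SH, and Fat3 at -0.78 (SE 0.33, adjusted p = 0.225) between aged SH and young SH. Of 24 classical cadherins 14 were tested, and the endothelial Cdh5 had the smallest p of them between aged SH and young SH (0.88, SE 0.28, adjusted p = 0.139). Without young EE library 1 Fat3 (adjusted p = 0.0894) and Cdh5 (adjusted p = 0.0856) were called between aged SH and young SH, as was Cdh5 without young SH library 2 (adjusted p = 0.0668). Limma called 1140 of 13305 and 1117 of 13377 genes in these fits, against 382 of 13138 with all 12 libraries. Of the 9 hair cell partners of Pcdh15 only Cib2 and Lhfpl5 passed the filter. Cib2 was at -0.58 (SE 0.24, adjusted p = 0.530) between aged EE and aged SH and at 0.64 (SE 0.24, adjusted p = 0.183) between aged SH and young SH.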

How the data were processed

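Per the study's methods, the authors called SOLiD tags, mapped them to NCBI37/mm9 with 1 mismatch and counted them over 29973 RefSeq transcripts. Per the labels, edgeR compared the groups. Each deposited signal value equals a read number multiplied by a constant of its library, kept to 4 digits. In all 12 libraries, 100% of values below 1000 were whole multiples of a step within 0.1 read, and values were divided by it. Young EE library 3 had the step nearest to 1 (1.01). The design foresaw plain counts or scaled values. As the values are scaled, limma was the main test. The authors' fold changes and p-values in the same tables were not used.

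The highest row per gene name was kept, then genes by filterByExpr (minimum count 10), scaled by TMM, and tested by limma (3.58.1, with trend) in R (4.3.3) on log2 of scaled reads plus 2. RPM are reads per 1000000 of the TMM-scaled total over the genes tested. All 3 libraries per group entered, whereas the study compared 2 of each 3, and those 8 were an alternative. Others were edgeR (4.0.16), DESeq2 (1.42.0) and its size factors, total reads, other filters and constants, only the groups compared, every row, identical rows once, the replicate block, the position score, a threshold of 0.05 and each library left out. On simulated reads of the aged EE and aged SH comparison (12991 genes), 29 of 100 genes changed 2-fold and 87 of 100 changed 4-fold were called, with 8 false calls. These reads were drawn independently for each gene, without the differences between libraries described above. The rates may therefore not hold for the real libraries. No pair of Pcdha or Pcdhg genes had identical values, so each array was counted as 1 measurement because of its shared site, and as called if any of its rows was. Sites were the CATG nearest each transcript end on the genome.

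The named genes were both array measurements, the 3 Pcdhb and 6 non-clustered genes of highest mean, per comparison the 5 of smallest p and any called, rows of unlike values, up to 2 per list and 3 most alike. Members and lists were chosen with earlier results of these data known. The measure of Pcdhgc5 reads beyond the shared ones, and Pcdhb9 without young EE library 1, were looked at after values were seen. Reads carry no molecular identifiers, so intervals cover counting error only.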

Additional observations from a re-analysis of the deposited data

How the results depend on the processing

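The number of protocadherin measurements called was 0 between aged EE and aged SH under the alternatives run, except 1 with DESeq2 (Pcdhg, through 21 rows other than Pcdhgc5), and 0 between young EE and young SH except 2 without young EE library 1. Between aged SH and young SH it was 1, against 2 with edgeR's quasi-likelihood test, its likelihood ratio test, DESeq2, every transcript row and identical rows counted once, and 0 with the study's 8 libraries, the dorsal minus ventral covariate and a threshold of 0.05. Leaving out 1 library gave 0 to 2 there. Between aged EE and young EE it was 0 in all, and for housing by age 0 except 1 with the likelihood ratio test and 2 with DESeq2. The causes were not tested. Over all genes, the 382 called between aged SH and young SH became 985 with the likelihood ratio test, 1145 with DESeq2, 151 without a filter, 0 with the study's 8 libraries and 0 with the covariate, 114 with the replicate block, 1 at a threshold of 0.05, and 0 to 1140 with 1 library left out. The 0 between young groups became 10 scaled by total reads, 14 with a constant of 8, 11 with the quasi-likelihood test and up to 298 with 1 library left out, where the 1 between aged groups became up to 5 and the 0 for housing by age up to 332. With the study's 8 libraries, 1 gene was called between the EE groups. DESeq2 called 101 genes between the aged groups, 116 between the young groups, 49 between the EE groups and 301 for housing by age, and the likelihood ratio test 16, 67, 19 and 180.

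The replicate numbers did not pair the libraries: correlations of same-numbered deviations ranged from -0.23 to 0.21, and 0 to 2 of 6 samples per comparison correlated best with their own number. With the replicate block, 114 genes and 1 protocadherin measurement, Pcdh8 (adjusted p = 0.0986), were called between aged SH and young SH, and 0 in the other comparisons.

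Among the protocadherin measurements named in each comparison by the rule (the shared ones, the called ones and the 5 of smallest p), the direction reversed for the Pcdha shared one. Between aged EE and aged SH it was 0.040 with the covariate. For housing by age it was 0.24 with the covariate, and between young EE and young SH 0.063 with the study's 8 libraries. With 1 library left out it ranged from -0.17 to 0.12 between the young groups, from -0.23 to 0.011 between the SH groups and from -0.27 to 0.018 for housing by age. The difference in the share of Pcdhgc5 reads beyond the shared ones was 2.19 to 2.58 percentage points with 1 library left out, and 2.2 over the cluster's median row, an alternative chosen after seeing the data. "Only the groups compared" gives no other fit for housing by age. Depth limited the tests: 7 members with 62 reads or fewer over 12 libraries did not pass the filter.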
